A study of Xenopus tropicalis with 31 samples.

Results

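The regions described here are genomic sites where a Foxi2 peak was first listed at early gastrula (stage 10.5) and where Sox3 was listed at the same stage. They were chosen from deposited peak lists, 1 list per factor and stage. Foxi2 peaks of stages 8, 9 and 10.5 that shared at least 1 bp were merged into 16392 regions, of which 6020 held a stage 10.5 peak. Of these, 1667 (27.7%) had no Foxi2 peak at stage 8 or 9 and overlapped a stage 10.5 Sox3 peak. They are called new co-bound regions below.

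The series is a set of ChIP-seq experiments on *Xenopus tropicalis* embryos obtained by in vitro fertilization, in which 31 samples fall into 19 groups. Foxi2 and Sox3 were profiled in whole wild-type embryos at stages 8 (mid-blastula), 9 (late blastula) and 10.5, with 2 samples per stage. The coactivator Ep300 and the histone marks H3K27ac and H3K27me3 were profiled at stage 10.5 in ectoderm and in endoderm dissected from embryos. Ep300 was measured in 2 experiments. The first, like H3K27ac, has 1 wild-type sample per tissue, and the second has 2 samples each of wild-type tissue and of tissue from FS morphants. FS morphants are embryos injected with translation-blocking morpholinos against both *foxi2* and *sox3*, and no list from embryos with a control morpholino was used. According to the paper's methods, morpholinos were injected into the animal side of the embryo. How far each dissected tissue was depleted of the factors was not measured here. The group of the FS morphants was read from the titles, since the labels call them wild-type like all other samples. The extraction protocol of every sample names an antibody against VegT, whatever factor the title gives. The titles were followed here. Each group that was used contributes 1 list, which for the first Ep300 experiment and H3K27ac rests on 1 sample. The intervals below therefore cover the counting of regions and not the spread between embryos. Read depths are not stated in the lists. The factor lists come from whole embryos, so a peak cannot be placed in a germ layer, and few cells bound strongly cannot be told apart from many cells bound weakly.

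Foxi2 is a forkhead transcription factor and Sox3 a SoxB1 factor of the high mobility group family. Both are supplied maternally in *Xenopus*, and both are known regulators of ectoderm. Ep300 is a histone acetyltransferase that is recruited by DNA-bound factors and is widely used to mark active enhancers, where it deposits H3K27ac. Large stitched clusters of H3K27ac are called super-enhancers (SEs). H3K27me3 is laid down by Polycomb repressive complexes and is found over silent developmental genes.

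The new co-bound regions were weaker Foxi2 sites than those bound from earlier stages. These values belong to the rule that chose the regions and are a description only. The stage 10.5 Foxi2 peaks had a −log10 p of 5.0 at the lowest, 157.3 at the median and 403.5 at the highest, and a median fold enrichment over input of 19.5. The 2412 regions with Sox3 that held Foxi2 at stages 8, 9 and 10.5 (persistent regions) had a median −log10 p of 295.4. The 335 regions with Sox3 that held Foxi2 at stages 9 and 10.5 but not at stage 8 (late blastula regions) had a median of 239.2, and the 369 regions with Sox3 that were listed at stages 8 and 10.5 but not at stage 9 (interrupted regions) one of 179.4. The 557 regions bound by Foxi2 only at stage 10.5 and without Sox3 (new Foxi2-only regions) had a median of 119.3. A −log10 p under 50 was found at 11 new co-bound regions, at 28 new Foxi2-only regions, and at 0 regions of the other 3 classes. Peak widths differed as well, with a median of 600.0 bp at new co-bound regions, 701.5 bp at persistent regions and 447.0 bp at new Foxi2-only regions.

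The margins of the rule were wide for most of these regions. The median gap to the nearest stage 8 or 9 Foxi2 peak was 17735 bp. The smallest was 72 bp, and 72 of the 1667 regions had an earlier Foxi2 peak within 500 bp. On the other side of that limit, the smallest overlap of an earlier-bound region with its earlier peak was 9 bp. Overlap with the Sox3 peak had a median of 534 bp and was 2 bp at the smallest. Of the new Foxi2-only regions, the nearest missed a Sox3 peak by 4 bp, 49 of 557 had a Sox3 peak within 500 bp, and the median gap was 11507 bp. New therefore means absent from 2 earlier peak lists, and binding below the limits of those lists was not measured. Earlier Sox3 likewise means a listed peak. By ChIP-qPCR at cleavage stage, the paper reports both factors at regulatory sites of several genes. Among them are *dlx5*, *krt70*, *tp63*, *eya1* and *fezf2*, which are named below. Whether those sites are among the new co-bound regions was not examined.

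Foxi2 and Sox3 were centred on nearly the same position in the new co-bound regions. The rule asked for overlapping peaks and the nearest Sox3 summit was taken, so short distances were favoured and are a description only. The distance between their stage 10.5 summits, the highest points of the peaks, had a median of 29.0 bp and an interquartile range of 13.0 to 53.0 bp. It was 50 bp or less at 1218 regions (73.1%) and 100 bp or less at 1504 (90.2%, Wilson 95% interval 88.7 to 91.6). Persistent regions had a median of 26.0 bp and late blastula regions 30.0 bp. The longest distance among new co-bound regions was 1576.0 bp.

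Most new co-bound regions had no Sox3 peak before gastrula. Sox3 was listed at stage 8 or 9 at 357 of 1667 regions (21.4%, 19.5 to 23.4), against 41.8% of all 6020 stage 10.5 Foxi2 regions. At stage 9 the count was 355 (21.3%, against 41.0% of all), and at stage 8 it was 7 (0.420%, against 5.61% of all). Stage 8 Sox3 was also infrequent at persistent regions (11.2%). The peaks of the stage 8 Sox3 list were weaker, with a median −log10 p of 32.2 against 127.9 at stage 9. Only 5 regions held Sox3 at all 3 stages, 350 at stages 9 and 10.5, 2 at stages 8 and 10.5, and 1310 at stage 10.5 alone. Among Sox3 lists, that of stage 10.5 was the longest with 14648 peaks, against 4401 for stage 9 and 5827 for stage 8, so the gastrula list offered far more sites. With the lists of each factor cut to equal length by −log10 p, the number of new co-bound regions was 1064 and the share with earlier Sox3 was 45.9%.

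Earlier Sox3 was less frequent at new co-bound regions than at regions that Foxi2 held earlier. The share was 74.0% at persistent regions, a difference of −52.6 percentage points (95% interval −55.2 to −49.9, Newcombe). It was 49.0% at late blastula regions, a difference of −27.5 points (−33.2 to −21.9), and 40.9% at interrupted regions, a difference of −19.5 points (−24.9 to −14.2). With Foxi2 strength held within 5 equal-sized bins of −log10 p, the differences were −38.7, −17.4 and −17.9 points, and all 3 intervals excluded 0. With the lists cut to equal length they were −46.6, −34.2 and −26.6 points. At new Foxi2-only regions 3 of 557 (0.539%) had earlier Sox3, but there the rule itself removed Sox3 at stage 10.5. No stage 8 Sox3 peak was found among these 557, which allows a share of up to 0.539% by 3 counts of the total, or 0.685% by the Wilson interval.

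Where Sox3 was listed before Foxi2, the Sox3 summits of the 2 stages lay close together. A stage 9 Sox3 peak was counted only where it overlapped the stage 10.5 Foxi2 peak, so large shifts were left out by the selection. The summits of the stage 9 and stage 10.5 Sox3 peaks lay a median of 15.0 bp apart (7.50 to 25.0). The stage 9 Sox3 summit lay a median of 30.0 bp from the Foxi2 summit of stage 10.5. Regions with earlier Sox3 were also the stronger Sox3 sites at gastrula. Their median Sox3 fold enrichment was 26.8 (22.7 to 31.7) at stage 10.5 and 19.0 (15.1 to 22.5) at stage 9. Regions without earlier Sox3 had a median of 14.5 (10.9 to 19.6) at stage 10.5, so the interquartile ranges of the 2 sets did not overlap. Foxi2 differed less, with a median fold enrichment of 20.5 with and 19.4 without earlier Sox3. The median Foxi2 −log10 p was 174.6 with and 151.7 without it.

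**Figure D1:**
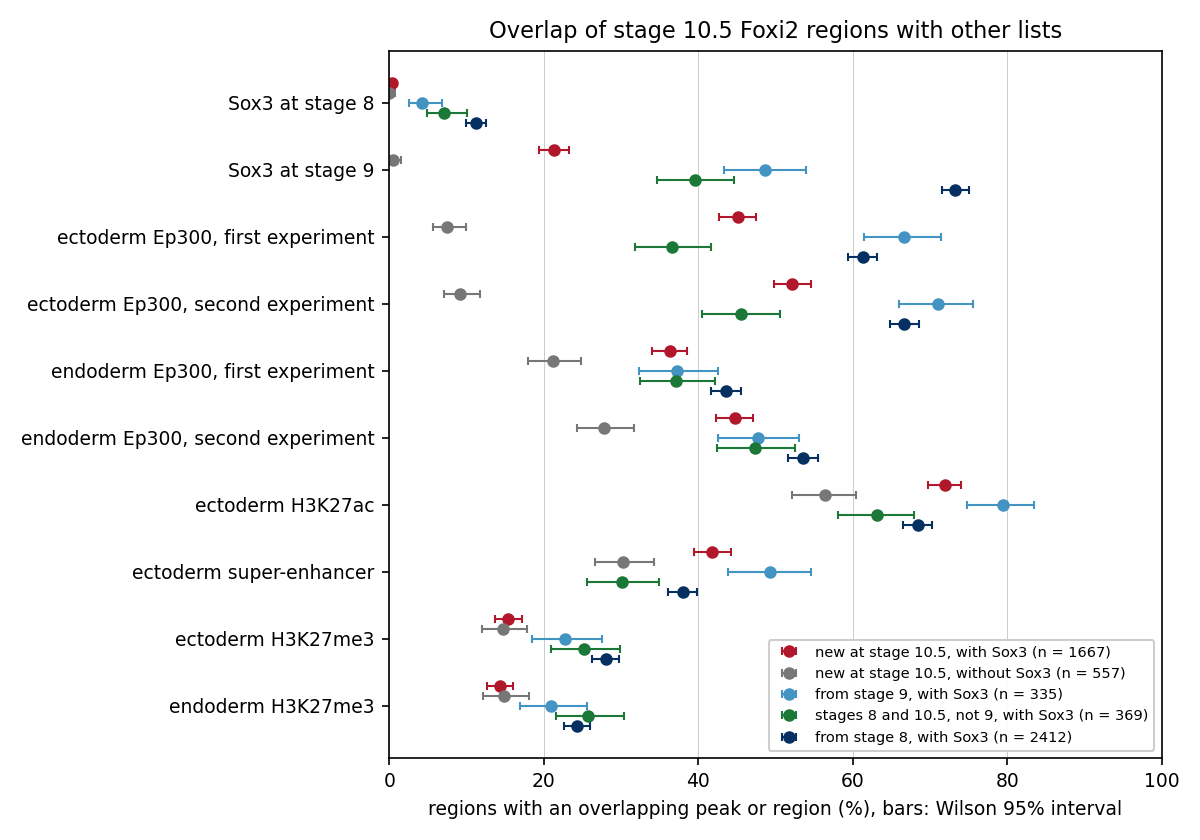
Share (%) of stage 10.5 Foxi2 regions that overlap each other list, for new co-bound regions (red, n = 1667), new Foxi2-only regions (grey, n = 557), late blastula regions (light blue, n = 335), interrupted regions (green, n = 369) and persistent regions (dark blue, n = 2412). Points are shares and bars are Wilson 95% intervals. New co-bound regions sit between new Foxi2-only and the 3 earlier-bound classes for Sox3 at stage 9. For ectoderm Ep300 they sit below late blastula and persistent but above interrupted regions, and for H3K27me3 beside new Foxi2-only regions.

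Ep300 was more frequent at new regions with Sox3 than at new regions without it, with the larger difference in ectoderm. In the first experiment, ectoderm Ep300 was found at 752 new co-bound regions (45.1%, 42.7 to 47.5), which is near the 44.5% of all stage 10.5 Foxi2 regions. In the second experiment it was found at 870 (52.2%, against 50.0% of all). At new Foxi2-only regions the shares were 7.54% and 9.16%. The difference between the 2 classes was 37.6 points (34.1 to 40.6) in the first experiment and 43.0 points (39.4 to 46.2) in the second. Within 5 bins of Foxi2 strength it was 34.3 points (30.0 to 38.6). In the weakest of these bins ectoderm Ep300 was found at 31.4% of 245 new co-bound and 4.50% of 200 new Foxi2-only regions, and in the strongest at 57.6% of 399 and 22.2% of 45. For endoderm Ep300 the shares of the 2 classes were 36.3% and 21.2% in the first experiment, a difference of 15.1 points (10.9 to 19.1). The second experiment gave 44.7% and 27.8%, a difference of 16.9 points (12.3 to 21.2).

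Against regions that Foxi2 held earlier, the ectoderm Ep300 share differed in direction by class. The share was 61.3% at persistent regions, a difference of −16.2 points for new co-bound regions (−19.3 to −13.1). It was 66.6% at late blastula regions, a difference of −21.5 points (−26.8 to −15.7). Interrupted regions had only 36.6%, a difference of 8.53 points (2.96 to 13.8), and 45.5% in the second experiment, a difference of 6.66 points (1.02 to 12.2). With lists of equal length the difference from interrupted regions was 2.88 points (−11.1 to 18.5). The difference from persistent regions was −14.6 points (−17.6 to −11.5) in the second experiment and −15.4 points (−19.0 to −11.7) with lists of equal length. Within 5 bins of Sox3 −log10 p it was −5.64 points (−8.51 to −2.78). The difference turned with Foxi2 strength. Within 5 bins of Foxi2 −log10 p it was 8.38 points in favour of new co-bound regions (4.08 to 12.7). In the weakest bin 35.8% of 688 new co-bound regions and 24.2% of 128 persistent regions carried Ep300, while in the strongest the shares were 66.7% of 21 and 82.2% of 794. The difference from late blastula regions kept its sign and was −7.93 points (−15.5 to −0.326) within such bins, the weakest of which held only 15 late blastula regions.

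**Figure D2:**
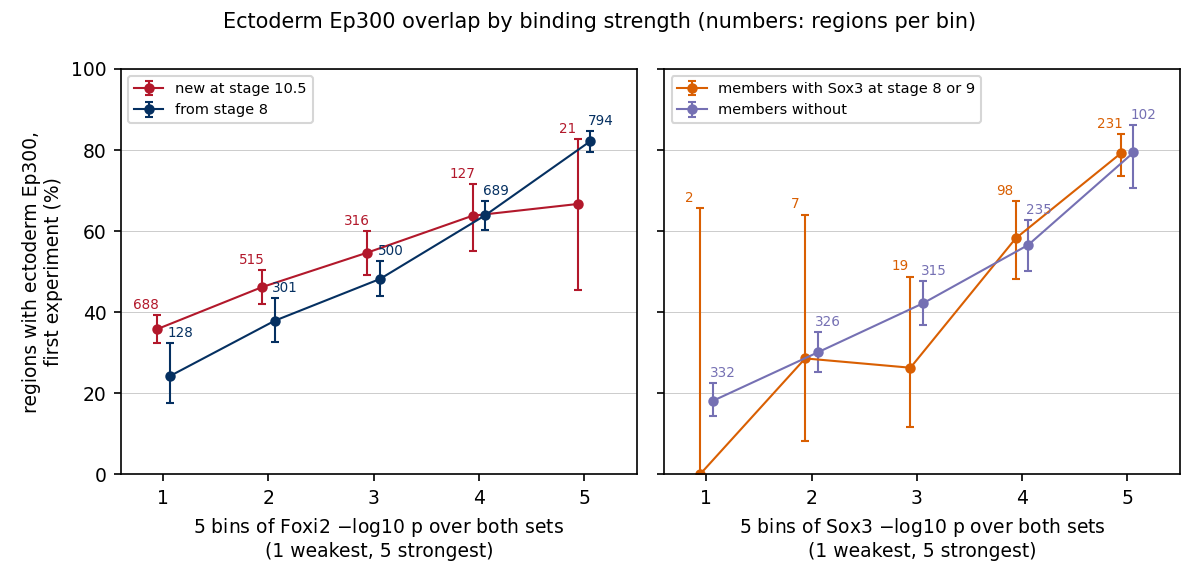
Share (%) of regions with a first-experiment ectoderm Ep300 peak in 5 equal-sized bins of stage 10.5 binding strength, with Wilson 95% intervals and the number of regions above each interval. Left, new co-bound (red) and persistent regions (dark blue) by Foxi2 −log10 p, where the red points are higher in the 3 weaker bins. Right, new co-bound regions with (orange) and without (purple) earlier Sox3 by Sox3 −log10 p, where the 2 sets have 79.2% and 79.4% in the strongest bin.

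Within the new co-bound regions, Ep300 was more frequent where Sox3 was strong. The regions were ranked by stage 10.5 Sox3 −log10 p and divided into 4 groups of equal size. From the weakest to the strongest group, the share with ectoderm Ep300 was 19.2%, 33.8%, 50.5% and 77.0%. The share with endoderm Ep300 was 28.8%, 30.5%, 34.6% and 51.3% in the same groups. In the weakest group endoderm Ep300 was thus more common than ectoderm Ep300, and in the strongest it was the reverse. The endoderm list was the longer one in both experiments, with 11690 peaks against 5840 in the first and 11597 against 5552 in the second, and the part of list length in comparisons of the tissues was not tested. Over 4 such groups by Foxi2 strength the ectoderm share ran from 33.3% to 57.1% and the endoderm share from 25.9% to 46.8%. Sox3 at stage 9 was found at 0.959% of the weakest and 63.8% of the strongest group by Sox3, and at 15.1% and 30.0% by Foxi2.

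**Figure D3:**
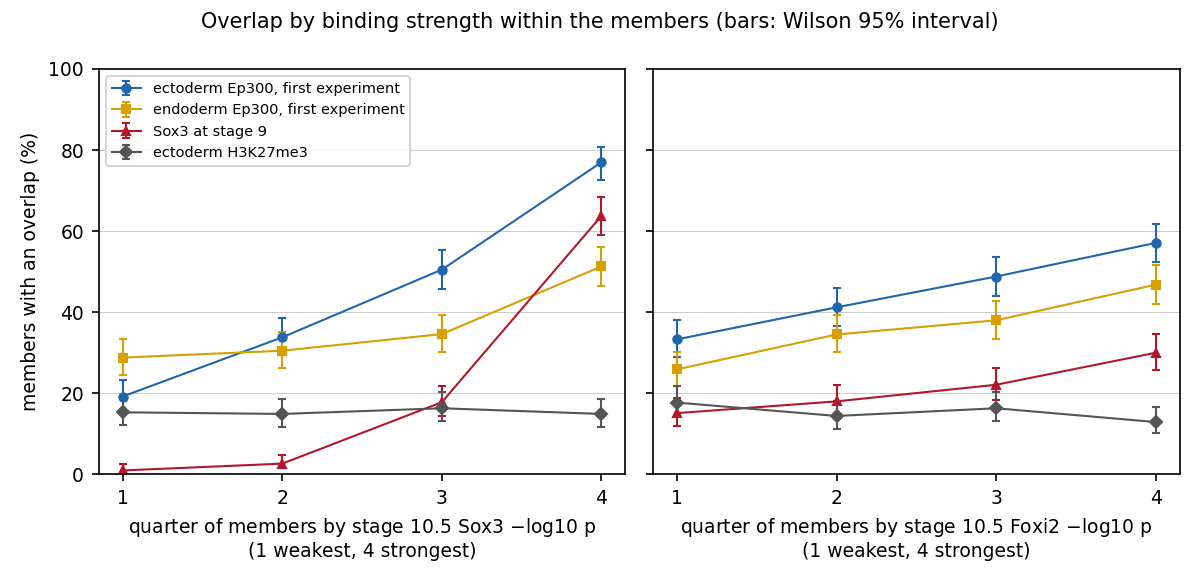
Share (%) of the 1667 new co-bound regions with ectoderm Ep300 (blue), endoderm Ep300 (yellow), stage 9 Sox3 (red) and ectoderm H3K27me3 (grey) in 4 equal-sized groups by stage 10.5 binding strength, for Sox3 and for Foxi2 in separate panels, with Wilson 95% intervals. Ectoderm Ep300 goes from 19.2% to 77.0% over the Sox3 groups, while H3K27me3 stays between 14.9% and 16.3%.

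Regions where Sox3 was listed before Foxi2 carried Ep300 more often than regions where both were first listed at gastrula. Ectoderm Ep300 was found at 69.2% of 357 regions with earlier Sox3 and at 38.5% of 1310 without, a difference of 30.6 points (25.0 to 35.9). In the second experiment the shares were 74.8% and 46.0%, a difference of 28.8 points (23.3 to 33.8). Endoderm Ep300 differed in the same direction, by 20.8 points (15.0 to 26.5) in the first experiment. Within 5 bins of Foxi2 strength the ectoderm difference was 28.3 points (22.9 to 33.7), and with lists of equal length it was 13.3 points (7.51 to 18.9). Held within 5 bins of Sox3 strength it was −0.670 points (−7.66 to 6.32). The 3 weaker of these bins held only 2, 7 and 19 regions with earlier Sox3. In the next bin Ep300 was found at 58.2% of 98 regions with and 56.6% of 235 without earlier Sox3, and in the strongest at 79.2% of 231 and 79.4% of 102.

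The few regions with Sox3 at stage 8 are described singly. Of the 5 regions with Sox3 at stages 8 and 9, 0 had ectoderm Ep300 in either experiment, 4 had endoderm Ep300 in the first and 5 in the second. Over all new co-bound regions the shares were 45.1% and 52.2% for ectoderm and 36.3% and 44.7% for endoderm. H3K27me3 was listed at 2 of the 5 in ectoderm and at 4 in endoderm, against 15.4% and 14.3% of all new co-bound regions. The strongest 3 by Foxi2 lay over *unc5d*, which encodes a netrin receptor, 5049 bp from *tmem35b*, and over *cdx2*, a caudal homeobox gene of the posterior body and gut. At the *cdx2* region (chr2:155092764-155093292) Sox3 fold enrichment was 15.4 at stage 8, 34.3 at stage 9 and 33.1 at stage 10.5, and Foxi2 fold enrichment was 14.9. An earlier Foxi2 peak lay 401 bp from the *cdx2* region, and one lay 252 bp from the region nearest to *igsf9b*, also among the 5. At the *unc5d* region (chr3:120461086-120461524) Sox3 was at 18.4, 15.5 and 15.9 over the 3 stages. With 5 regions no comparison was made. Another 2 regions had Sox3 at stages 8 and 10.5 but not at stage 9. In both experiments the one over *col18a1* had Ep300 in ectoderm only, and the one 11495 bp from *srsf1* in endoderm only.

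Ep300 at new co-bound regions was found in either germ layer. In the first experiment 471 regions had Ep300 in ectoderm only, 324 in endoderm only, 281 in both and 591 in neither. Endoderm Ep300 in total was found at 605 regions (36.3%, against 35.2% of all stage 10.5 Foxi2 regions), and in the second experiment at 745 (44.7%, against 43.9% of all). Of the 795 regions with Ep300 in 1 tissue, 59.2% (55.8 to 62.6) had it in ectoderm, against 61.8% over all stage 10.5 Foxi2 regions. The second experiment gave 57.5% of 831, against 57.4% over all. When an overlap had to cover 50% of both peaks the share was 52.3% (48.6 to 55.8), so the excess of ectoderm was then no longer called.

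That ectoderm share was 71.1% at persistent regions, 79.9% at late blastula regions, 49.3% at interrupted regions and 24.3% at new Foxi2-only regions. The difference of new co-bound from new Foxi2-only regions was 34.9 points (26.7 to 42.0), and within bins of Foxi2 strength it was 34.1 points. The difference from interrupted regions was 9.95 points (1.11 to 18.7), and that from late blastula regions was −20.6 points (−27.1 to −13.1). The difference from persistent regions was −11.8 points (−16.2 to −7.41), and within bins of Foxi2 strength it was −0.505 points (−7.86 to 6.85). Within bins of Sox3 strength it was −6.49 points (−11.0 to −1.95), and in the second experiment −8.35 points (−12.8 to −3.88). Within new co-bound regions the share was 67.1% with and 57.1% without earlier Sox3, a difference of 9.98 points (1.73 to 17.6) that was −8.68 points (−18.0 to 0.655) within bins of Sox3 strength.

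The 5 strongest new co-bound regions with ectoderm Ep300 in both experiments are given with their nearest genes, at any distance. The first lay 25790 bp from *ventx3.2*, a homeobox gene of the BMP-responsive Ventx family (chr7:26817273-26818114, UCB_Xtro_10.0). Its fold enrichment was 33.8 for Foxi2 and 36.2 for Sox3 at stage 10.5, and 24.8 for Sox3 at stage 9. The second overlapped *yap1*, the transcriptional coactivator of the Hippo pathway (chr2:162271330-162272054), with a Foxi2 fold enrichment of 36.7, Sox3 at 26.2 and no earlier Sox3. The region in *wdpcp*, a planar cell polarity effector (chr5:32846866-32847601), had 40.1 for Foxi2 and 42.5 for Sox3. The other 2 lay 13414 bp from *shisa1.1*, of the family that holds back Wnt and FGF receptors in *Xenopus* (chr8:46416085-46416861), and over *dtx4*, a Deltex gene of the Notch pathway (chr7:57404180-57404739). Ectoderm Ep300 of the second experiment was at a fold enrichment of 19.4 for *ventx3.2*, 10.7 for *yap1*, 24.4 for *wdpcp*, 10.9 for *shisa1.1* and 14.8 for *dtx4*. None of the 5 had a listed peak in FS morphant ectoderm. An overlapping morphant peak was found at 34.1% of the 870 new co-bound regions with wild-type ectoderm Ep300 in that experiment. In endoderm the regions of *ventx3.2*, *wdpcp* and *shisa1.1* had Ep300 in both wild-type and morphant tissue.

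Equally strong Foxi2 sites lacked ectoderm Ep300. The strongest of all 1667 by Foxi2 (chr7:88571785-88572319) had a fold enrichment of 43.4, lay 96352 bp from *agrn*, the gene of the matrix proteoglycan agrin, and had no ectoderm Ep300 in either experiment. The next such region lay 7982 bp from *hes6.1*, of the Hes family of repressors (chr5:128030531-128031368), with 37.1. Their stage 10.5 Sox3 fold enrichment was 17.2 and 14.5, below that of each of the 5 regions with Ep300, and neither had earlier Sox3. Both carried endoderm Ep300 in both experiments, with 14.4 and 10.4 in the second.

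Most ectoderm Ep300 peaks at new co-bound regions were missing from the FS morphant list. Of the 870 regions with wild-type ectoderm Ep300 in the second experiment, 297 kept it (34.1%, 31.1 to 37.4), against 40.5% over all stage 10.5 Foxi2 regions. In endoderm 633 of 745 kept it (85.0%, against 85.9% over all). The morpholinos were injected on the animal side, so the endoderm may not have been depleted to the same degree as the ectoderm. This was not tested. At the 392 regions with wild-type Ep300 in both tissues, 153 kept it in endoderm only, 19 in ectoderm only, 168 in both and 52 in neither. The morphant ectoderm list was shorter as a whole, with 3593 peaks against 5552 in wild-type. An FS morphant peak without a wild-type one was found at 31 regions (1.86%). Among 292 regions that kept ectoderm Ep300 and had a fold enrichment in both lists, the morphant value was lower at 155 (53.1%) and the median ratio was 0.980. Peaks missing from the morphant list do not enter this ratio, so it is a description of the kept peaks only.

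Ectoderm Ep300 was kept less often at new co-bound regions than at persistent and late blastula regions, which had stronger Ep300 peaks. The kept share was 42.8% at persistent regions, a difference of −8.66 points (−12.6 to −4.65), and 50.0% at late blastula regions, a difference of −15.9 points (−22.9 to −8.79). Median wild-type Ep300 fold enrichment was 9.41 at new co-bound, 11.4 at persistent and 12.6 at late blastula regions. Within 5 bins of wild-type Ep300 −log10 p the differences were 0.296 points (−3.39 to 3.98) and −5.32 points (−12.4 to 1.80). Interrupted regions, with a median of 9.55 close to that of new co-bound regions, kept 41.1% of 168, a difference of −6.93 points (−15.1 to 0.914). New co-bound regions with earlier Sox3 kept Ep300 at 41.6% of 267 and those without at 30.8% of 603, a difference of 10.7 points (3.84 to 17.7) that was 0.740 points (−6.12 to 7.60) within the same kind of bins. At new Foxi2-only regions 21 of 51 were kept (41.2%), a difference of −7.04 points (−21.0 to 5.79) that was −21.8 points (−35.1 to −8.45) within bins. Only these 51 regions were available for the 5 bins. When an overlap had to cover 50% of both peaks the difference was 1.79 points (−8.60 to 10.8). In endoderm the kept share of new co-bound regions did not differ beyond its interval from persistent (−4.37 to 2.01), late blastula (−4.41 to 8.14), interrupted (−8.86 to 1.80) or new Foxi2-only regions (−7.85 to 3.77).

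**Figure D4:**
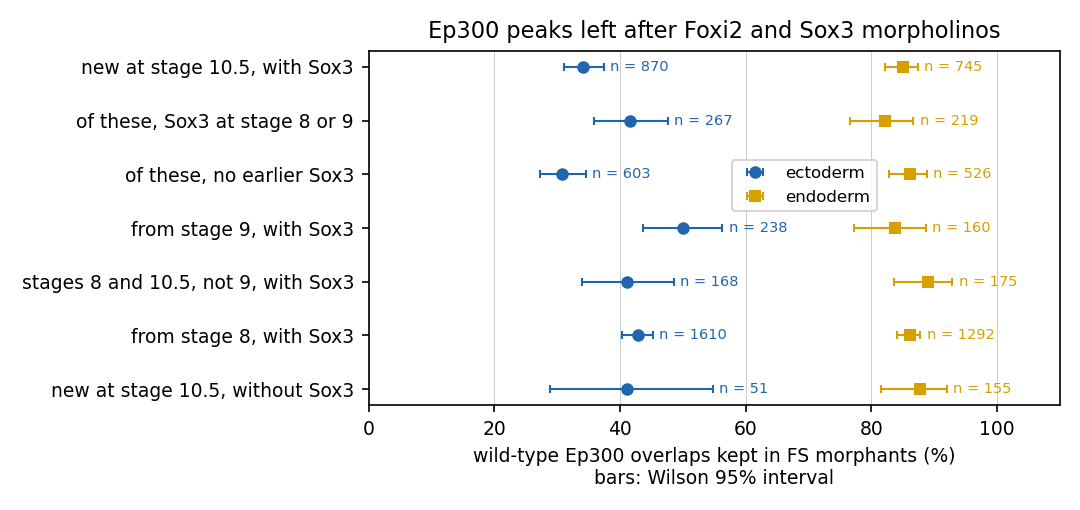
Share (%) of wild-type Ep300 overlaps of the second experiment that also overlap an FS morphant peak, in ectoderm (blue circles) and endoderm (yellow squares), with Wilson 95% intervals and n. The 5 classes and the new co-bound regions split by earlier Sox3 keep between 82.2% and 89.1% in endoderm and between 30.8% and 50.0% in ectoderm. The morpholinos were injected on the animal side, and depletion in each tissue was not measured here.

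H3K27ac marked most new co-bound regions, and H3K27me3 few of them. Ectoderm H3K27ac covered 1199 regions (71.9%, against 65.8% of all stage 10.5 Foxi2 regions) and endoderm H3K27ac 922 (55.3%, against 50.2%). The ectoderm share was 15.6 points above that of new Foxi2-only regions (10.9 to 20.2), 3.56 points above persistent (0.696 to 6.38) and differed from late blastula regions by −7.48 points (−12.0 to −2.37). Ectoderm SEs held 697 regions (41.8%, against 36.3%) and endoderm SEs 417 (25.0%, against 21.9%). The signal header of the endoderm H3K27ac table names the animal-pole library, so which library ranked the endoderm SEs is not settled. The SE share was 11.5 points above new Foxi2-only regions (6.88 to 15.8), 3.83 points above persistent (0.781 to 6.89) and differed from late blastula regions by −7.44 points (−13.3 to −1.62). Against interrupted regions the differences were 8.78 points for H3K27ac (3.53 to 14.2) and 11.7 for SEs (6.33 to 16.8). Within bins of Foxi2 strength the difference from persistent regions was 16.2 points for H3K27ac (11.7 to 20.7) and 14.1 for SEs (10.0 to 18.3), and the SE difference from late blastula regions was 0.123 points (−7.32 to 7.56). All H3K27ac regions, SEs among them, come from lists that the program ROSE stitched over 12 kb. An overlap thus places a region in an acetylated stretch, a broad one for SEs, and not necessarily on an acetylated peak. The H3K27me3 lists were also processed with ROSE.

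Ectoderm H3K27me3 overlapped 256 new co-bound regions (15.4%, 13.7 to 17.2), against 21.9% of all stage 10.5 Foxi2 regions, and endoderm H3K27me3 238 (14.3%, against 19.9%). Persistent regions had 28.0% in ectoderm, a difference of −12.6 points (−15.1 to −10.1), and 24.3% in endoderm, a difference of −9.98 points (−12.3 to −7.55). Late blastula regions had 22.7% in ectoderm, a difference of −7.33 points (−12.4 to −2.79) that was −14.5 points (−22.0 to −7.10) within bins of Foxi2 strength. Interrupted regions had 25.2% in ectoderm, a difference of −9.85 points (−14.8 to −5.31). New Foxi2-only regions had 14.7%, a difference of 0.635 points (−2.95 to 3.89). The shares with and without earlier Sox3 were 16.2% and 15.1%, a difference of 1.13 points (−2.89 to 5.70). H3K27me3 thus differed between classes set apart by the stage of Foxi2 binding, and neither Sox3 split gave an interval that excluded 0.

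Earlier Sox3 went with a small difference in acetylation. Ectoderm H3K27ac was found at 76.2% of new co-bound regions with and 70.8% without earlier Sox3, a difference of 5.43 points (0.166 to 10.3), and ectoderm SEs at 47.1% and 40.4%, a difference of 6.68 points (0.899 to 12.5). Within bins of Sox3 strength these were −1.92 points (−8.68 to 4.83) and 1.24 points (−6.97 to 9.44).

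New co-bound regions were spread over all 10 chromosomes. They made up between 24.3% (chromosome 5) and 36.1% (chromosome 10, 84 of 233, 30.2 to 42.4) of the stage 10.5 Foxi2 regions. A protein-coding gene body was overlapped by 913 (54.8%, 52.4 to 57.1), and 270 (16.2%) lay over 20 kb from any. Gene bodies were overlapped by 50.5% of persistent and 52.6% of new Foxi2-only regions. A persistent region lay within 20 kb of 489 (29.3%, 27.2 to 31.6), against 151 of 557 new Foxi2-only regions (27.1%, 23.6 to 30.9). Of all 21749 protein-coding genes, 1576 (7.25%) had a new co-bound region within 20 kb of the gene body, and 500 of these (31.7%) also had a persistent region. The genes with the most, 5 each, were *exoc6*, of the exocyst complex, *pard3b*, a Par3 polarity gene, *plxna2*, a semaphorin receptor, and LOC100488469. This last set was named after its counts were seen, and the counts were not adjusted for gene length.

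Genes of 6 chosen lists were then examined for a new co-bound region within 20 kb, beside the 7.25% of all genes. Of the epidermal list 10 of 15 genes had one, of the border and placode list 7 of 10, of the signalling list 10 of 16, of the neural list 6 of 14 matched genes, of the study's factors and their partners 3 of 10, and of the endoderm and mesoderm list 3 of 20. Persistent regions lay near 12 of 15 epidermal, 13 of 14 neural and 12 of 20 endoderm and mesoderm genes, and near 10.2% of all genes. On the endoderm and mesoderm list, 10 genes had a persistent region and no new co-bound region. Median gene lengths were 15424 bp for epidermal, 2619 bp for neural and 5112 bp for endoderm and mesoderm genes, against 15506 bp for all genes, and longer genes have more room for a region. The lists are short and were picked with these genes' biology known, so the counts describe them and are not set against chance.

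**Figure D5:**
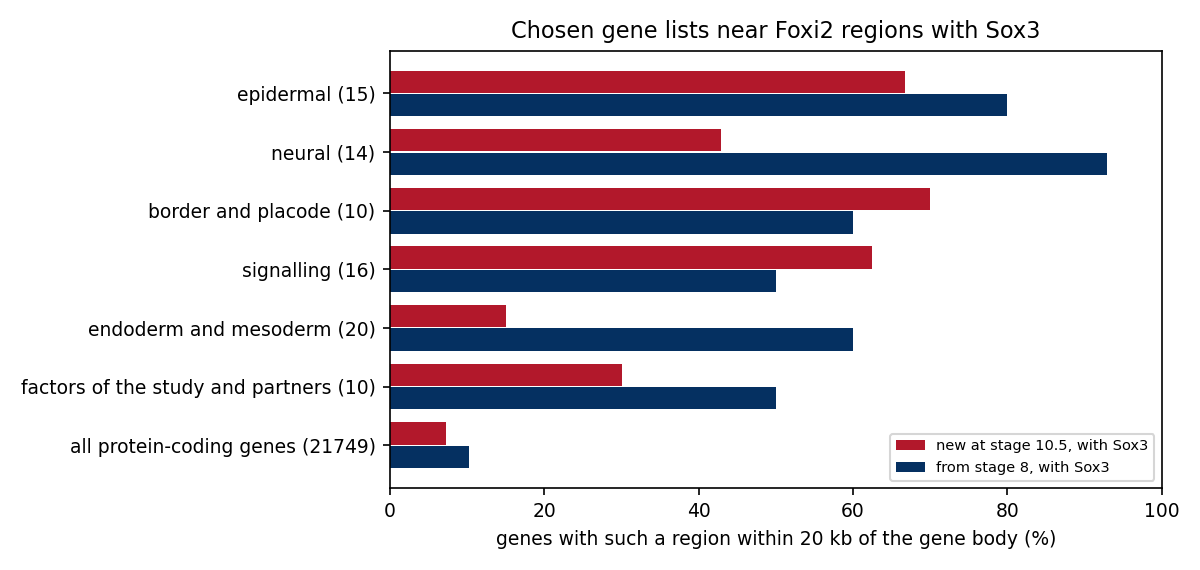
Share (%) of the genes of each list (number of genes in parentheses) and of all 21749 protein-coding genes with a new co-bound region (red) or a persistent region (dark blue) within 20 kb of the gene body. New co-bound regions lie near 10 of 15 epidermal and 3 of 20 endoderm and mesoderm genes, and persistent regions near 12 of each.

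Genes of the epidermal list held 16 of these regions, most of them with Ep300 in ectoderm. Ectoderm Ep300 of the first experiment was found at 13, endoderm Ep300 at 4, ectoderm SEs at 15 and stage 9 Sox3 at 2, where the shares over all new co-bound regions are 45.1%, 36.3%, 41.8% and 21.3%. *tp63*, the p63 transcription factor of basal epidermis, had 3 within its gene body (chr5:104004659-104005223, chr5:104018999-104019488 and chr5:104023027-104023668). Their Foxi2 fold enrichment was 28.5, 20.4 and 23.8, and their ectoderm Ep300 in the second experiment was 10.9, 11.3 and 10.1. None of the 3 had earlier Sox3, endoderm Ep300 or a peak in FS morphant ectoderm, and the third lay 250 bp from an earlier Foxi2 peak. *krt70*, a keratin gene, also had 3, all with ectoderm Ep300 in both experiments, and the one over the start coordinate of the gene (chr10:7571037-7571450) had 28.6 for Foxi2. *grhl1*, a grainyhead-like factor of epidermal barrier genes, had 1 at 4305 bp with 24.6 for Foxi2, and its ectoderm Ep300 was 21.2 in wild-type tissue and 19.4 in morphant tissue.

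The other epidermal genes had 1 or 2 each. *tfap2c*, an AP-2 factor, had 2, of which the one inside the gene had stage 9 Sox3 at 29.8. *gata2*, a GATA factor of ventral ectoderm, had 2, and the one at 10141 bp had ectoderm Ep300 of 22.3 in wild-type tissue and none listed in FS morphants. *klf5*, a Krüppel-like factor, had 1 at 9951 bp with stage 9 Sox3 at 20.9. *dlx3*, *dlx5*, *gata3* and *grhl2* had 1 each, and for *dlx3*, *gata3* and *grhl2* no persistent region lay within 20 kb. The *dlx5* region lay 205 bp from an earlier Foxi2 peak. Ectoderm Ep300 was kept in FS morphants at both *tfap2c* regions. It was also kept at those of *dlx3* (12.4 in wild-type and 7.31 in morphant tissue) and *dlx5* (13.8 and 11.3). At the *klf5* and *gata3* regions it was not. Over all new co-bound regions with wild-type ectoderm Ep300, 34.1% kept it. The region 19025 bp from *grhl2* had no Ep300 in either tissue.

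Neural genes held 8 regions, of which 3 had ectoderm Ep300 in the first experiment, near the 45.1% of all new co-bound regions. *sox2*, a SoxB1 factor of neural progenitors, had 1 at 404 bp (chr5:108038112-108038947) with 22.2 for Foxi2, 16.6 for Sox3 and no Ep300 in either tissue. *fezf2*, a forebrain zinc finger factor, had 1 over the gene with stage 9 Sox3 at 19.2 and no Ep300 in either tissue. *hes5.1*, a Notch target, had 2 with ectoderm Ep300, of which the one at 12765 bp was nearest to *hes5.2*. *sox21* and *foxd4l1.2* had 1 each, with endoderm but no ectoderm Ep300. Ectoderm H3K27me3 overlapped 4 of the 8, against 15.4% of all new co-bound regions.

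Of the 11 regions near border and placode genes, 4 had ectoderm Ep300 in the first experiment and 5 endoderm Ep300, and 7 overlapped ectoderm H3K27me3. Over all new co-bound regions these shares are 45.1%, 36.3% and 15.4%, so both Ep300 counts lie near them. *eya1*, a placodal transcriptional cofactor, had 3 inside the gene, with Foxi2 at 28.9, 22.3 and 21.2. All 3 had endoderm Ep300, and 2 had ectoderm Ep300 in the second experiment only. *msx1*, a homeobox gene of the neural plate border, had 2 with ectoderm Ep300 and no Ep300 listed in FS morphant ectoderm. *pax3*, a paired box gene of the border and neural crest, had 1 with stage 9 Sox3 at 21.3. *foxd3*, a neural crest forkhead gene, had 2 without ectoderm Ep300, and *sox9* and *tfap2b* had 1 each, also without it. *dlx6* shared its region with *dlx5*.

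Signalling genes held 13 regions, 8 with ectoderm and 9 with endoderm Ep300 in the first experiment, and 1 overlapped ectoderm H3K27me3, against the same 45.1%, 36.3% and 15.4% of all new co-bound regions. The strongest lay 4750 bp from *smad7*, an inhibitor of TGF-β and BMP signalling (chr1:205601625-205602550), with 34.5 for Foxi2 and Ep300 in both tissues. *bmp7.1*, a BMP ligand, had 1 at the start coordinate of the gene with 23.2 for Foxi2, and its ectoderm Ep300 was 16.2 in wild-type tissue and 16.5 in morphant tissue. *id3*, a BMP-responsive inhibitor of helix-loop-helix factors, had 2 with stage 9 Sox3, and the one at 1656 bp had ectoderm Ep300 of 29.5 in wild-type tissue and 34.4 in morphant tissue. *id2* had 1 with stage 9 Sox3 at 25.5, and its ectoderm Ep300 was 8.21 in wild-type tissue and 15.6 in morphant tissue. *jag1*, a Notch ligand, had 2, *szl*, a secreted regulator of BMP signalling in *Xenopus*, 1, and *fgf8*, *wnt8a*, *dll1* and *smad6* 1 each. Those of *fgf8*, *wnt8a*, *dll1* and *smad6* had no ectoderm Ep300 in the first experiment.

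Of the endoderm and mesoderm genes, *foxa4*, a forkhead gene of the organizer, had 1 new co-bound region at 6861 bp, and *eomes*, a T-box gene of mesendoderm, had 1 at 1434 bp. Both regions had endoderm Ep300 and no ectoderm Ep300 in either experiment, and neither was in an ectoderm SE. The list as a whole held 6 regions. Endoderm Ep300 of the first experiment was found at 6, ectoderm Ep300 at 1 and ectoderm SEs at 0. Over all new co-bound regions these shares are 36.3%, 45.1% and 41.8%. Among the study's factors and partners, *pou5f3.1* and *pou5f3.2*, neighbouring genes of the Oct4-related family in *Xenopus*, shared 3 regions, 2 of them with stage 9 Sox3 and ectoderm Ep300. These 2 had *npdc1.1* as their nearest gene, at 4906 and 2385 bp. The remaining region, 4344 bp from *pou5f3.1*, had no earlier Sox3, and Ep300 in endoderm only. *foxh1*, a forkhead factor of Nodal signalling, had 1 inside the gene with 15.3 for Foxi2. No new co-bound region lay within 20 kb of *foxi2* or *sox3*.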

How the data were processed

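According to the methods of the study and the labels, reads were aligned with Bowtie 2 (version 2.2.7 in the submitters' processing notes) to *X. tropicalis* genome version 10.0, duplicates were removed, peaks were called by MACS2 with input DNA as control at a p of 0.001, and replicates were combined at an irreproducible discovery rate of 0.05. Each of the 12 peak lists of a factor or of Ep300 holds, as deposited by the authors, a fold enrichment (ratio) over input, the −log10 of the p-value and of the q-value, a score and a summit offset. Fold enrichment, −log10 p and summits were used, and the score served only to see where the lists end. For the histone marks the authors ran ROSE, which stitches and ranks peaks, and the deposited signal was not used beyond their cutoff call. Read depth is unknown, so the precision of a share comes from the number of regions.

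Overlap meant 1 bp or more. Each region was scored over its stage 10.5 Foxi2 peak, so that classes compare alike. Shares have Wilson 95% intervals and differences Newcombe 95% intervals, called when 0 lay outside. Differences within 5 equal-sized bins of strength were weighted by the first set. Python 3.11.15, numpy 2.4.6 and pandas 2.3.3 were used, and the functions were tested on simulated data. An Ep300 peak was kept when an FS morphant peak overlapped it. Protein-coding genes came from RefSeq for UCB_Xtro_10.0, the assembly of the lists. Of the 86 listed entries 85 matched. The table gives gene bodies only. No genome sequence was used, so motifs were not examined. Named regions were the 5 strongest by Foxi2 with ectoderm Ep300 in both experiments, the 3 strongest without it, the 3 strongest with Sox3 at stages 8 and 9, and regions within 20 kb of a listed gene. Some of these are not reported here. The regions, lists and comparisons were chosen with earlier results of these data known. Every group that was used has 1 list, and no test between replicates was possible.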

Additional observations from a re-analysis of the deposited data

How the results depend on the processing

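Of 174 values computed under another setting, 138 kept their direction and their side of the threshold, and the cause of the others was not tested. No paired analysis was possible because each group that was used has 1 list, and for the same reason no replicate could be left out. The motif comparison was not run. The window of 200 bp around the Foxi2 summit, the bins of Sox3 strength, every comparison with interrupted regions, the settings of the differences in earlier Sox3, and those of the ectoderm share of Ep300 in 1 tissue other than the second experiment for new co-bound regions as a whole were chosen after seeing the data. With the stronger 50% of the Foxi2 and Sox3 lists, the number of regions was 782 and the share with earlier Sox3 25.4%. The H3K27ac difference from persistent regions was then 3.03 points, the SE difference from late blastula regions −2.32, the H3K27me3 difference from new Foxi2-only regions −3.41, and the H3K27ac and H3K27me3 differences by earlier Sox3 4.98 and −1.21. Against interrupted regions the ectoderm Ep300 difference was 5.0 with the stronger 50%, 2.88 with equal length and 4.83 when an overlap had to cover 50% of both peaks, the H3K27ac difference 5.68 with the stronger 50%, and with the 50% overlap the kept difference was −9.46 and that in the ectoderm share 9.77. With lists of equal length, the number was 1064 and the share 45.9%. With Sox3 summits within 150 bp the share was 19.5%. Within bins of Foxi2 strength, the ectoderm Ep300 difference from persistent regions was 8.38 points, the difference in the ectoderm share of Ep300 in 1 tissue from them −0.505, the SE difference from late blastula regions 0.123 and the H3K27me3 difference from new Foxi2-only regions −1.19. Within bins of Sox3 strength, the differences by earlier Sox3 were −0.670 for ectoderm Ep300, −8.68 for the ectoderm share, −1.92 for H3K27ac and 1.24 for SEs, and those from late blastula regions −5.16 for H3K27ac and −3.73 for SEs. Within bins of wild-type Ep300 strength, the kept difference was 0.296 from persistent, −5.32 from late blastula and −21.8 from new Foxi2-only regions, and 0.740 by earlier Sox3. When an overlap had to cover 50% of both peaks, the kept difference from new Foxi2-only regions was 1.79 and the ectoderm share 52.3%. With the 200 bp window, the H3K27ac difference by earlier Sox3 was 4.13. At 50 kb, 10 neural genes and 6 of the study's factors and partners had a region nearby, and at 5 kb 4 border and placode genes did. Bins leave some difference in strength within each bin.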
